A study of Mus musculus with 4 samples.

Results

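A set of 9 genes of the red cell lineage was followed in mouse bone marrow pro-B cells, an early stage of B cell development, from mice with floxed or intact alleles of Tnpo3, which encodes the nuclear import receptor transportin 3. They were Gata1, Klf1, Epor, Slc4a1, Ermap, Alas2, Car1, Car2 and Tfrc. The genes were taken by symbol from a raw count table of 24411 genes, in which all 9 were found. The knockout group consisted of 2 Tnpo3fl/fl mb1Cre mice (numbers 51 and 63), whose floxed Tnpo3 alleles are targets of Cre. The control group consisted of 2 Tnpo3+/+ mb1Cre mice (numbers 55 and 69), which carry the same Cre with intact Tnpo3. All were C57BL/6 mice of an age not given in the labels, with 1 male and 1 female mouse per genotype by the levels of Xist and Ddx3y (female knockout 63 and control 55). In both groups Cre is expressed from the mb1 locus (Cd79a), a gene of the B lineage, and cells were sorted as B220+CD43+HSA+.

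Red cells form in the same marrow, around macrophages, from progenitors that divide under the hormone erythropoietin and then fill with heme and hemoglobin. Erythropoietin binds its receptor, encoded by Epor, while the transcription factors GATA1 and KLF1 bind GATA and CACCC elements of DNA and turn on genes of the red cell membrane, heme synthesis and carbon dioxide handling. Tfrc and Car2 differ from the other members in that many other cells also make them. None of the 3 sort markers is specific to red cells, and HSA, encoded by Cd24a, is present on immature red cells as well as on B cell precursors.

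The libraries held 26211372 to 40647384 counts. Tnpo3 itself, the targeted gene, had 79.7 and 68.8 CPM (counts scaled to a common library total) in knockouts 51 and 63, against 159 and 148 CPM in controls 55 and 69 (log2 fold change -1.05 ± 0.14 SE, Benjamini-Hochberg adjusted p = 0.0108 in edgeR's quasi-likelihood test). Leaving out knockout 63 gave an adjusted p of 0.0627, within a range of 2.98e-06 to 0.0627 over 12 alternatives. Of 13507 genes tested, 10.9% were called lower and 11.3% higher in the knockout, and the median log2 fold change was -0.02. B-lineage markers were present in all 4 libraries, where 0 of the 14 listed were at 0 counts. Replicate libraries correlated across genes at 0.976 in the knockouts and 0.975 in the controls, and the 4 libraries came from 4 mice.

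The RefSeq promoter table for GRCm38.p6 held windows for 6 of the 9 genes, each from 250 bases before to 50 bases after a transcript start. The 3 shown belong to genes that fell in the knockout, and they carry in capitals the letters that GATA1 and KLF1 are known to read: GATAA and GATAG, which appear as TTATC and as CTATC when they lie on the other strand, and CACCC, which then appears as GGGTG. The windows lie at chr8:84901732-84902031 on the plus strand for Klf1, chr9:21963527-21963826 on the minus strand for Epor, and chrX:150547167-150547466 on the plus strand for Alas2.
Klf1: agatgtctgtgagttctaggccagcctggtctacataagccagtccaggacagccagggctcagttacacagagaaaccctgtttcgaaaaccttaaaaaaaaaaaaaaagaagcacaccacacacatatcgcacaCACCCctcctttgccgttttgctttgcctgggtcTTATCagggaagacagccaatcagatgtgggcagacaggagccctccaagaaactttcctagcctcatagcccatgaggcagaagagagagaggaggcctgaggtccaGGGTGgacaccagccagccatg
Epor: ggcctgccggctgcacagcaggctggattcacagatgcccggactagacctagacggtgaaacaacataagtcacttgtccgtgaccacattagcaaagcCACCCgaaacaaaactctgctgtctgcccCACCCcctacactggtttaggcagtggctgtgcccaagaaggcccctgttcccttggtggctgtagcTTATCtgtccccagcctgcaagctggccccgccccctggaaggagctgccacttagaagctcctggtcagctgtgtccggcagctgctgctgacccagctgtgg
Alas2: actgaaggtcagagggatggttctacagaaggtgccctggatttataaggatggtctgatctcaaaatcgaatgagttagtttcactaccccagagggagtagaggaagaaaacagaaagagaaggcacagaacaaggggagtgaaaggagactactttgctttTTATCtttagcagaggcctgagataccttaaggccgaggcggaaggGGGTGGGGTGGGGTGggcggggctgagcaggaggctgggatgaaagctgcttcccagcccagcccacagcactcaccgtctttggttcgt
Each of these windows held 1 GATAA on the other strand, at position -80 of Klf1, -54 of Epor and -86 of Alas2 counted from the transcript start. In Alas2 all 3 CACCC matches lay on the other strand and followed each other without a gap, at positions -40, -35 and -30. Windows of Gata1 and Ermap also held both kinds of letters, whereas the windows of Tfrc held CACCC and neither GATA form. Over 32851 promoter windows of this length, 41.6% held GATAA or GATAG, 57.5% held CACCC and 21.7% held both kinds, so such matches are common and are given as a description of the letters, not as sites.

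Of the 9 genes, 5 fell in the knockout and 0 rose by edgeR, where 1 gene, Tfrc, was higher at an unadjusted p under 0.05 and passed by DESeq2 but not by limma-voom. Slc4a1, Car1, Klf1, Alas2 and Epor passed the test at an adjusted p under 0.05, while Gata1, Ermap, Car2 and Tfrc did not. The 5 lower calls stand beside the 10.9% of all genes called lower, and the absence of a higher call stands beside the 11.3% called higher. In 8 of the 9 genes both knockout libraries lay below both control libraries, a separation in that direction shown by 34.6% of all genes tested, and in Tfrc both knockouts lay above both controls. Slc4a1, Klf1 and Gata1 reached the minimum of about 0.317 CPM in enough libraries only through the controls, so their lower values were in part a condition of being tested. The B220 gate is meant to leave red cell precursors out of the sort. In bulk libraries, fewer red cell precursors in the sort and less of each RNA per cell cannot be told apart.

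**Figure D1:**
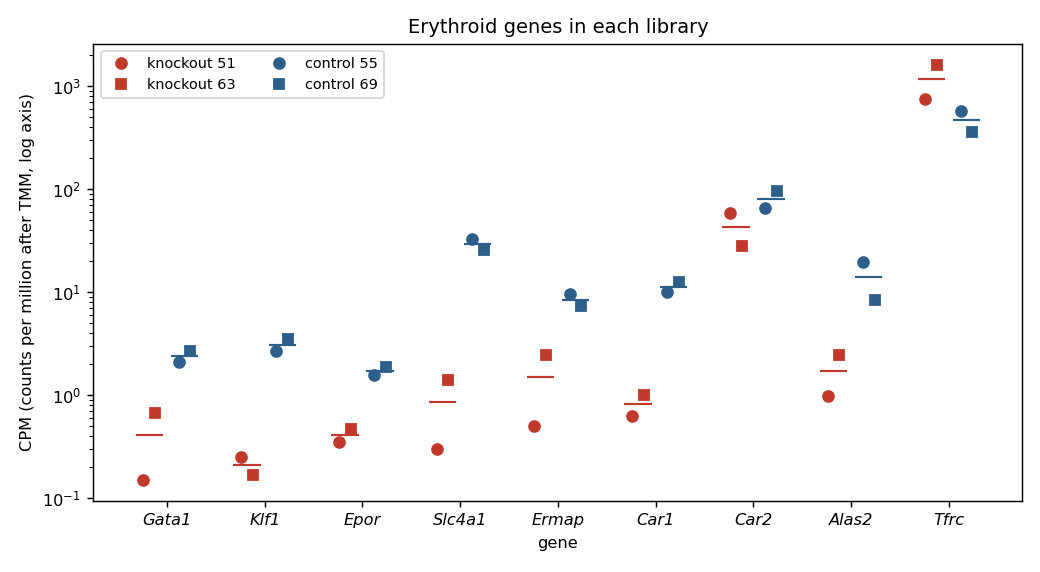
CPM of the 9 erythroid genes on a log axis, 1 point per library (circles and squares as in the legend), with knockouts in red left of controls in blue and a bar at each group's mean. The groups do not overlap for any gene, with the knockouts below the controls in 8 genes and above them in Tfrc.

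Gata1, on chrX:7959260-7976663, encodes the master transcription factor of red cells, which is also made by megakaryocytes, eosinophils and mast cells. It had 0.149 and 0.664 CPM in knockouts 51 and 63, against 2.08 and 2.67 CPM in controls 55 and 69, with 6 and 20 counts in the knockouts and 68 and 71 in the controls. The knockouts were both lower, but they were spread more than 4-fold between them on few counts, and the log2 difference of -2.57 ± 0.76 did not pass (adjusted p = 0.0649, with 5 of 11 alternatives below 0.05 and a range of 0.0192 to 0.135). Klf1, on chr8:84901982-84905291, encodes the factor that acts beside GATA1 on red cell genes and is more restricted to that lineage. It had 0.248 and 0.166 CPM in the knockouts, against 2.66 and 3.46 CPM in the controls, with 10 and 5 counts in the knockouts and 87 and 92 in the controls. Klf1 fell by 3.84 ± 0.52 on the log2 scale (adjusted p = 0.0109 by edgeR's quasi-likelihood test) and passed in 11 of 11 alternatives that gave it a value.

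Epor, on chr9:21958897-21963576, encodes the erythropoietin receptor. Its level was low everywhere, at 0.347 and 0.465 CPM in the knockouts and 1.56 and 1.88 CPM in the controls, from 14 counts in each knockout and 51 and 50 in controls 55 and 69. The groups were apart and each was tight, and Epor fell by 2.08 ± 0.50 on the log2 scale (adjusted p = 0.0383 by edgeR's quasi-likelihood test). That call did not survive leaving out any library, at an adjusted p of 0.148 without knockout 51, 0.115 without knockout 63, 0.0773 without control 55 and 0.102 without control 69, within a range of 0.023 to 0.148 over 11 alternatives.

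Slc4a1, on chr11:102348820-102365281, encodes band 3, the chloride and bicarbonate exchanger that is among the most abundant proteins of the red cell membrane. It had 0.297 and 1.39 CPM in the knockouts, against 32.6 and 25.7 CPM in the controls, or 12 and 42 counts in the knockouts and 1068 and 685 in the controls. Mean levels were 0.845 ± 0.775 CPM in the knockouts and 29.2 ± 4.88 CPM in the controls (SD, n = 2 each), so the control mean was 34.5 times that of the knockouts. The gene fell by 5.15 ± 0.70 on the log2 scale (adjusted p = 0.0109 by edgeR's quasi-likelihood test), more than any other member, and 0.526% of all genes tested had a more negative log2 fold change. Slc4a1 passed in all 12 alternatives.

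Ermap, on chr4:119175457-119190013, encodes a membrane protein of the red cell that carries the Scianna blood group in humans. It had 0.495 and 2.46 CPM in the knockouts, against 9.48 and 7.37 CPM in the controls. Both knockouts lay below both controls, with knockout 63 nearer to them. The log2 difference of -2.53 ± 0.75 did not pass (adjusted p = 0.065 by edgeR's quasi-likelihood test). With knockout 63 left out the difference was -4.08 at an adjusted p of 0.0198, and 6 of 12 alternatives were below 0.05, within a range of 0.00361 to 0.1.

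Alas2, on chrX:150547417-150570622, encodes the red cell form of the enzyme that starts heme synthesis. It had 0.966 and 2.42 CPM in the knockouts, against 19.6 and 8.42 CPM in the controls. The 2 controls were more than 2-fold apart, and the lower of them was still above both knockouts. Alas2 fell by 3.06 ± 0.63 on the log2 scale (adjusted p = 0.0272 by edgeR's quasi-likelihood test). The call was lost without knockout 51 (adjusted p = 0.0656) and in limma on the authors' normalized values (0.062), both within a range of 9.4e-06 to 0.0656 over 12 alternatives. Alas2 overlaps Apex2, a DNA repair gene on the opposite strand, and without a known strand setting their reads cannot be told apart. Apex2 had 11.1 and 6.77 CPM in the knockouts, against 13.3 and 17.4 CPM in the controls (log2 difference -0.77, adjusted p = 0.152).

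Car1 and Car2 encode carbonic anhydrases of the red cell cytoplasm, which interconvert carbon dioxide and bicarbonate, and they lie close together on chromosome 3 (chr3:14766214-14808365 and chr3:14886269-14900770). Car1 had 0.619 and 0.996 CPM in the knockouts, against 10.1 and 12.5 CPM in the controls. It fell by 3.81 ± 0.39 on the log2 scale (adjusted p = 0.00659 by edgeR's quasi-likelihood test), the smallest adjusted p of the 9 genes, and passed in all 12 alternatives. A processed pseudogene, Gm16399, lies within Car1 on the same strand. Car2, which several other cell types also make, had 58.7 and 27.8 CPM in the knockouts, against 64.8 and 94.7 CPM in the controls. Knockout 51 lay close to control 55, and the log2 difference of -0.88 ± 0.39 did not pass (adjusted p = 0.162 by edgeR's quasi-likelihood test). Leaving out knockout 51 gave -1.52 at an adjusted p of 0.0421, within a range of 0.0103 to 0.434 over 12 alternatives.

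Tfrc, on chr16:32608896-32632794, encodes transferrin receptor 1, which brings iron into dividing cells of many kinds and is very high on red cell precursors. It had 747 and 1612 CPM in the knockouts, against 574 and 360 CPM in the controls. Both knockouts were above both controls, and the spread within the knockouts was wide, with means of 1180 ± 611 CPM in the knockouts and 467 ± 151 CPM in the controls (SD, n = 2 each). The log2 difference of 1.34 ± 0.43 did not pass (adjusted p = 0.08 by edgeR's quasi-likelihood test). It passed without knockout 51 (1.79, adjusted p = 0.0345) and without control 55 (1.75, adjusted p = 0.0407), within a range of 0.00371 to 0.284 over 12 alternatives. Of 14 proliferation genes, 8 fell (57.1%, against 10.9% of all genes), and fewer without knockout 63, as over all genes. The 8 were the mitotic or cyclin genes and proliferation markers Mki67, Top2a, Cenpf, Cenpe, Ndc80, Nusap1, Ccnb1 and Ccna2, while the replication genes Mcm2, Mcm5, Pcna, Rrm2, Tyms and Tk1 did not pass, with log2 differences of -0.73 for Rrm2 to 0.19 for Mcm2.

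**Figure D2:**
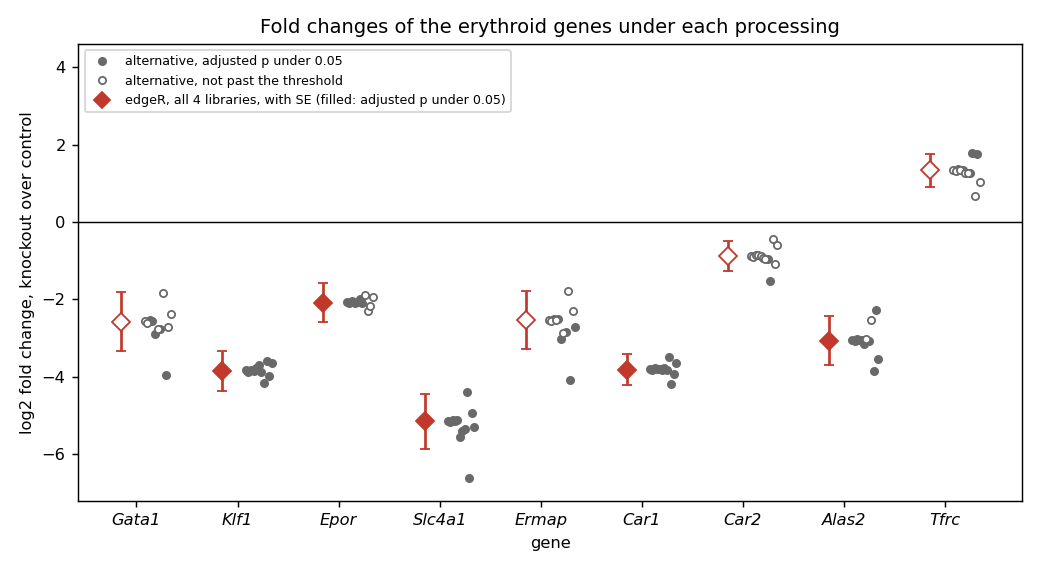
Log2 fold change of each erythroid gene, knockout over control, as a red diamond with its standard error in edgeR on all 4 libraries (filled where the adjusted p is under 0.05), beside points for each alternative processing, left-out libraries included (filled likewise). The diamond for Tfrc is above 0 and the 8 others are below it, with Slc4a1 lowest at -5.15.

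The direction of every member was the same in both sexes, which follows from the separation of the groups. Each sex held 1 mouse per genotype. Between the female mice, knockout 63 against control 55, the log2 difference was -4.49 for Slc4a1, -3.26 for Car1, -1.56 for Gata1 and 1.49 for Tfrc. Between the male mice, knockout 51 against control 69, it was -6.17 for Slc4a1, -4.20 for Car1, -3.70 for Gata1 and 1.05 for Tfrc. Alas2 and Gata1 are X-linked. The values of Alas2 were close, at -2.98 between females and -3.04 between males, whereas those of Gata1 were -1.56 and -3.70. With sex as a block in the edgeR model, which leaves 1 residual degree of freedom, 8 of the 9 genes passed as lower and Tfrc passed as higher. That model also called more of all 13507 genes, at 2186 lower and 2137 higher, against 1468 and 1524 without the block.

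Expressed per length (CPM per kilobase of exon), the control order was Tfrc at a mean of 75.5, Car2 at 32.9, Car1 at 9.03, Slc4a1 at 5.97, Alas2 at 5.82, Klf1 at 2.0, Ermap at 1.59, Gata1 at 0.974 and Epor at 0.864. Neighbours in that order whose 2 control libraries overlapped were Slc4a1 with Alas2, Klf1 with Ermap, and Gata1 with Epor. In the knockouts the per-length means were 191 for Tfrc, 17.9 for Car2, 0.705 for Alas2, 0.647 for Car1, 0.279 for Ermap, 0.204 for Epor, 0.173 for Slc4a1, 0.167 for Gata1 and 0.135 for Klf1. There the neighbours did not overlap between Tfrc and Car2, Car2 and Alas2, and Car1 and Ermap, and all other neighbours overlapped. Slc4a1 held the seventh place in the knockouts, against the fourth in the controls. Tfrc and Car2 carried most of the members' counts in both genotypes. The other 7 genes, set aside after these values were seen, summed to 3.12 and 8.56 CPM in the knockouts, against 78.0 and 62.0 CPM in the controls.

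Genes whose pattern over the 4 libraries lay nearest to that of Slc4a1 were sought by the root mean square difference of centred log2 CPM among 10562 genes with a mean log2 CPM of at least 1. The 5 nearest were Fcmr (0.463), an Fc receptor for IgM, Trib2 (0.616), a pseudokinase, Ms4a1 (0.648), the B cell surface protein CD20, Fmn2 (0.654), a formin, and Prg3 (0.657), an eosinophil granule protein. Among the members, Car1 was the nearest to Slc4a1 at 0.965 and Tfrc the farthest at 3.32. With 4 libraries in 2 groups, such nearness describes these libraries and the values share their normalization.

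Other genes of the red cell programme were followed in 7 lists, which held 129 genes found in the table besides the 9 members. Of the 120 tested, 32 fell, 7 rose and 81 did not pass, with a median log2 fold change of -0.35, against 10.9% lower, 11.3% higher and a median of -0.02 over all genes. Of the 120, 19 reached the expression minimum only through the controls, against 612 of all 13507 genes tested. Both the lower and the higher calls were fewer with either knockout library left out, as they were over all genes.

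Membrane and skeleton genes moved in the greatest number. Of 22 tested, 13 fell (59.1%, against 10.9% of all genes) and 1 rose (4.55%, against 11.3%), with a median log2 fold change of -2.61. Of the 22, 10 reached the expression minimum only through the controls. Kel, a blood group protein, fell by 4.84 on the log2 scale (adjusted p = 0.00751) to 0.124 and 0.0996 CPM in the knockouts, against 3.82 and 2.86 CPM in the controls. Ank1 and Sptb, ankyrin and beta-spectrin of the membrane skeleton, had log2 fold changes of -2.73 and -3.14 and both passed. The 1 gene that rose was Bcam, an adhesion protein also made outside the red lineage, on 28 counts in each knockout and 2 and 1 counts in controls 55 and 69, a knockout to control ratio of 15.7 (exact 95% interval 5.11 to 78.4), and that call was lost without knockout 63 or either control.

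Of 19 late red cell genes tested, 7 fell (36.8%, against 10.9% of all genes), with a median log2 fold change of -0.51. Of the 19, 6 reached the expression minimum only through the controls. With either knockout library left out fewer of them passed, which was also so over all genes. Trim10, a red cell ubiquitin ligase, fell by 5.32 to 2 and 3 counts in knockouts 51 and 63, against 118 and 65 counts in controls 55 and 69. Rhag, the Rh-associated ammonia channel, and Epb4.2, a skeleton protein, had log2 fold changes of -4.54 and -3.76 and both passed, Epb4.2 not without knockout 51. Both genes are also in the membrane and skeleton list, so their calls are counted in each of these lists. Pklr, the red cell and liver pyruvate kinase, had 2 and 0 counts in knockouts 51 and 63, against 50 and 43 counts in the controls, a knockout to control ratio of 0.0181 (exact 95% interval 0.00216 to 0.0672, counting error only).

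Of 20 red cell transcription factors tested, 6 fell (30.0%, against 10.9% of all genes) and 2 rose (a share below the 11.3% of all genes), with a median log2 fold change of -0.36. Of the 20, 2 reached the expression minimum only through the controls, among them Gata2. Fewer were lower with either knockout library left out, as over all genes. Gata2, the GATA factor of early progenitors and mast cells, had 0 counts in both knockouts, against 48 and 70 counts in the controls, at least 46.8-fold lower when the knockouts are set at 3 counts over both libraries (adjusted p = 0.0136). E2f2, a cell cycle factor, was at 120 and 76.7 CPM in the knockouts, against 538 and 527 CPM in the controls, and fell by 2.44 ± 0.25 (adjusted p = 0.00656). The 2 that rose were Lmo2, the LIM protein that bridges GATA1 and TAL1, at 101 and 100 CPM in the knockouts against 57.2 and 58.6 CPM in the controls, and Bcl11a, a repressor of fetal globin also needed for B cells, at 344 and 523 CPM in the knockouts against 196 and 188 CPM in the controls. Lmo2 did not pass with either knockout left out, nor Bcl11a without knockout 63.

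Of 17 erythropoietin signalling genes tested, 4 fell (23.5%, against 10.9% of all genes) and 2 rose (11.8%, near the 11.3% of all genes), with a median log2 fold change of -0.29. The balance turned with the method, at 4 lower and 5 higher by DESeq2 and without a filter, and 3 lower and 0 higher on the authors' normalized values. Those that fell were Irs2, Pim1, Gab1 and Bcl2l1, the last encoding the survival protein BCL-XL. Bcl2l1 had 41.5 and 22.4 CPM in the knockouts, against 138 and 132 CPM in the controls (log2 fold change -2.08, adjusted p = 0.0128). Jak2, the kinase bound to the receptor, rose to 178 and 207 CPM in the knockouts, against 126 and 99.9 CPM in the controls, and Socs3, an inhibitor of the pathway, also rose. These signalling genes are shared with other cytokine receptors. The 2 higher calls became 0 without knockout 63, 1 without knockout 51 and 4 without control 55, and Gab1 did not pass with either knockout left out.

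Heme synthesis genes other than Alas2 mostly did not pass, with 2 of 18 tested lower (11.1%, near the 10.9% of all genes) and a median log2 fold change of -0.08. Of the 18, 1 (Tspo2) reached the expression minimum only through the controls. Slc25a37, mitoferrin, which carries iron into mitochondria, fell to 82.6 and 89.4 CPM in the knockouts, against 205 and 166 CPM in the controls (log2 fold change -1.11 ± 0.16, adjusted p = 0.0121), and Tspo2 fell by 3.17. Both calls were lost when either knockout library was left out, and that of Tspo2 also without control 55. Fech, the enzyme that inserts iron to complete heme, had 16.8 and 17.2 CPM in the knockouts and 26.1 and 23.2 CPM in the controls (adjusted p = 0.10), and Ppox did not pass either (adjusted p = 0.063).

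Of 19 iron genes tested other than Tfrc, 2 fell and 2 rose (10.5% each, near the 10.9% lower and 11.3% higher of all genes), with a median log2 fold change of -0.01. Slc11a2 and Slc40a1, encoding the iron importer DMT1 and the exporter ferroportin, had log2 fold changes of -1.96 and -2.98 and both passed. Slc11a2 had 21.5 and 14.4 CPM in the knockouts, against 65.7 and 74.0 CPM in the controls. Slc39a14, a zinc and iron importer, rose to 89.3 and 85.5 CPM in the knockouts, against 11.8 and 9.32 CPM in the controls (log2 fold change 3.05 ± 0.19, adjusted p = 0.0044). Fth1, the ferritin heavy chain, whose reads may be shared with processed pseudogenes, rose by 1.12 (adjusted p = 0.0223) but did not pass without knockout 51, knockout 63 or control 69. The 2 lower calls became 5 without control 55 and 3 without knockout 51 or control 69, and the 2 higher calls became 1 without knockout 51, knockout 63 or control 69. Of 7 other carbonic anhydrases tested, 0 passed by edgeR, although 2 were lower and 1 higher at an unadjusted p under 0.05 and DESeq2 called 1 higher, with a lowest edgeR adjusted p of 0.0738 for Car12, at 5.28 and 5.14 CPM in the knockouts against 1.35 and 2.59 CPM in the controls.

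**Figure D3:**
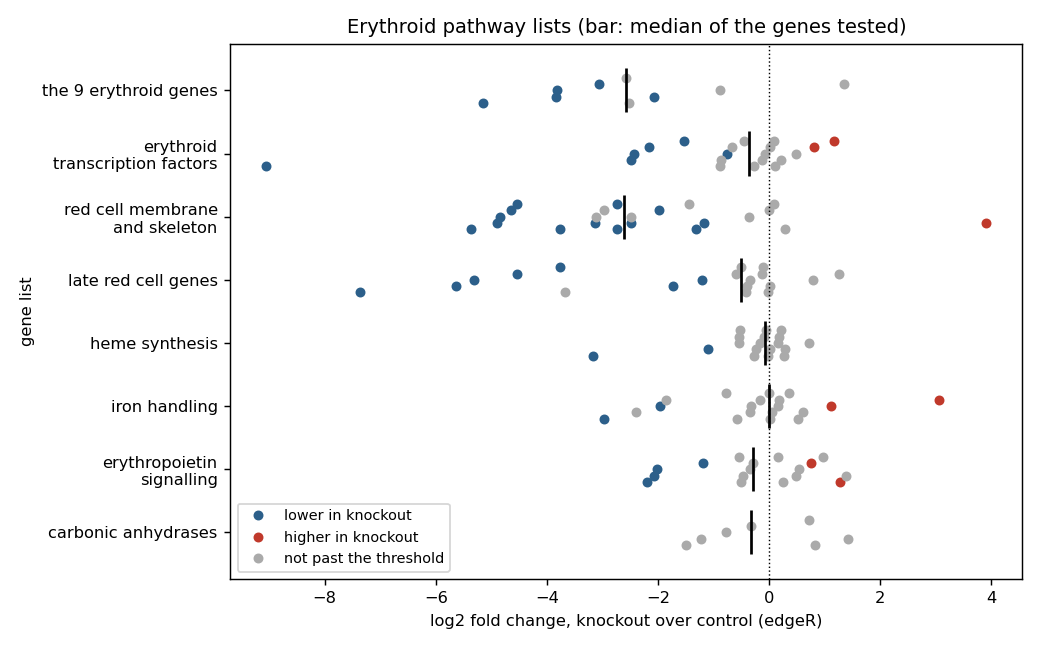
Log2 fold change, knockout over control in edgeR, of the 9 erythroid genes and of each tested gene in 7 lists of the red cell programme, with a bar at each median, blue and red points for genes called lower and higher at an adjusted p under 0.05, and grey points for the others. The membrane and skeleton list has a median of -2.61, while heme synthesis and iron handling centre near 0, and Gata2 and Ypel4 are at 0 counts in both knockouts, so their plotted values depend on the fit.

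Markers of other marrow cells were compared between the same libraries, where 10.9% of all genes tested were called lower and 11.3% higher. Of 14 neutrophil markers all 14 fell, with a summed level of 233 and 55.5 CPM in the knockouts against 5053 and 4016 CPM in the controls, and 0 of them were at 0 counts in any library. Of these 14, 2 reached the expression minimum only through the controls. Of 13 eosinophil, basophil and mast cell markers tested, 9 fell, summing to 9.49 and 7.77 CPM in the knockouts against 346 and 176 CPM in the controls, and of the 15 listed 2 and 6 were at 0 counts in knockouts 51 and 63, against 2 in each control. Of the 13 tested, 8 reached the expression minimum only through the controls. Epx, eosinophil peroxidase, had 1 count in the knockouts together, against 1399 and 670 counts in controls 55 and 69. Of 9 megakaryocyte markers tested, 1 fell and 1 rose (11.1% each, near the shares of all genes). Itga2b had 0.644 and 1.03 CPM in the knockouts against 3.24 and 3.72 CPM in the controls, and Itgb3 had 78.0 and 90.8 CPM in the knockouts against 31.7 and 12.6 CPM in the controls. The call of Itga2b was lost with any library left out (adjusted p 0.052 to 0.115), and that of Itgb3 with either knockout left out.

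Island macrophage markers, of the cells around which red cells mature, gave 8 lower (61.5%, against 10.9% of all genes) and 2 higher (15.4%, against 11.3%) of 13 tested. Of the 13, 2 reached the expression minimum only through the controls. The sum over the listed macrophage markers was 189 and 179 CPM in the knockouts against 155 and 203 CPM in the controls. Fewer were lower without knockout 63, as over all genes. The 2 genes of this list with the highest mean went opposite ways. Cd68, a lysosomal protein of macrophages and other myeloid cells, had 119 and 131 CPM in the knockouts against 21.3 and 10.2 CPM in the controls, and so made up most of the knockouts' sum. Maf, a transcription factor, had 10.2 and 5.18 CPM in the knockouts against 29.6 and 79.6 CPM in the controls, and did not pass without knockout 63. Cd163 was the other gene called higher (log2 fold change 1.62). B-lineage markers fell in 10 of 14 genes (71.4%, against 10.9% of all genes), with 3816 and 3189 CPM in the knockouts against 10796 and 12444 CPM in the controls. Dendritic cell markers rose in 12 of 14 genes (85.7%, against 11.3% of all genes), with 9567 and 12832 CPM in the knockouts against 3447 and 1656 CPM in the controls. Natural killer cell markers rose in 9 of 14 genes (64.3%), with 1346 and 293 CPM in the knockouts against 53.6 and 46.4 CPM in the controls. The natural killer count was 1 by limma-voom and 14 without knockout 63. Of the 3 sort genes, Cd24a was lower, at 488 and 583 CPM in the knockouts against 2284 and 1905 CPM in the controls (log2 fold change -1.97, adjusted p = 0.00725). Spn, encoding CD43, was higher, at 444 and 396 CPM in the knockouts against 159 and 261 CPM in the controls (log2 fold change 1.0, adjusted p = 0.0492), a call lost without knockout 51, knockout 63 or control 55, with total counts and on the authors' normalized values. Ptprc, encoding B220, had 911 and 1009 CPM in the knockouts against 750 and 371 CPM in the controls and did not pass (adjusted p = 0.168). The part of these shifts in the values of the red cell genes was not tested.

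**Figure D4:**
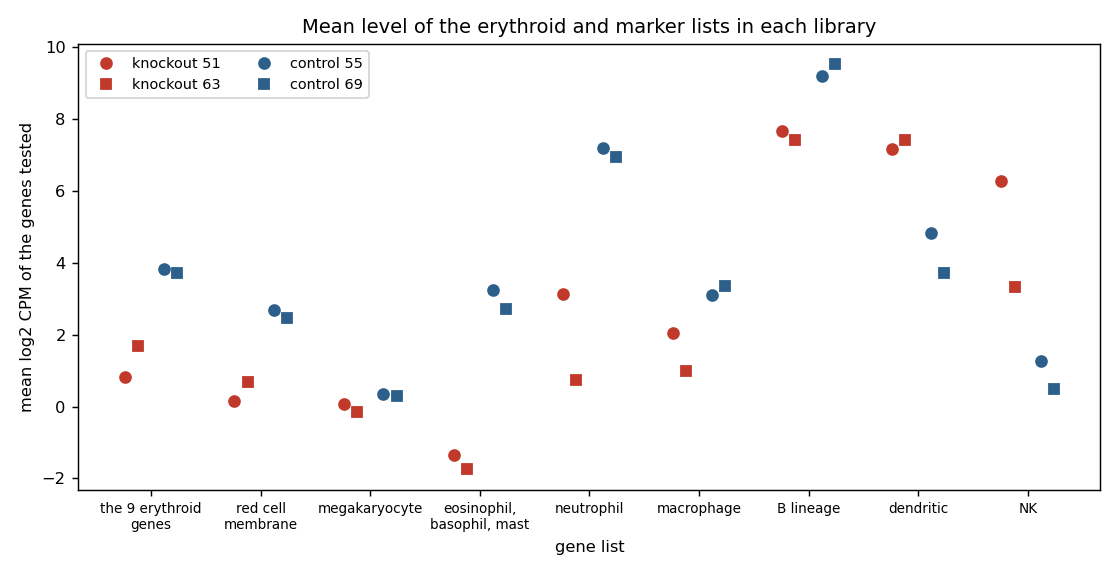
Mean log2 CPM of the tested genes of each list (the 9 erythroid genes, red cell membrane genes and 7 marker lists), 1 point per library, with knockouts in red left of controls in blue. The dendritic and natural killer lists are higher in both knockouts than in both controls. All other lists plotted are lower, the megakaryocyte, macrophage and B-lineage lists included.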

How the data were processed

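RNA was sequenced from 4 libraries, 1 per mouse (2 per genotype). Per the labels' protocols, low input libraries were made without molecular identifiers described, so every interval and floor given covers counting error alone. The authors deposited raw counts per gene symbol, and a table of normalized signal, which was each count times 1 factor per library (0.8156 to 1.22). That second table held 13021 entries, 20 of them dates in place of symbols, and served 1 alternative. Per the submitters' processing notes, the tools were STAR 2.7.4a, featureCounts, Subread 2.0.0, SAMtools 1.10, DESeq2 and deepTools 3.3.2, and the builds GRCm38 and mm10. The sources used here do not give the annotation, the strand setting or the handling of multi-mapping reads.

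In edgeR 4.0.16 under R 4.3.3, filterByExpr (minimum count 10, minimum total 15) kept 13507 genes, TMM scaled the libraries, and knockout was compared with control by the quasi-likelihood F test over all 4 libraries without covariates, with Benjamini-Hochberg adjustment over all genes tested and a threshold of 0.05. Genes varied between mice with a coefficient of 0.251. At these depths, 3 counts were 0.0743 to 0.113 CPM. The procedure was tested on simulated data. Replicates differed by a mean chi-square of 61.0 per gene in the knockouts and 84.5 in the controls, so no library repeated another.

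The members and lists were chosen with earlier results of these data known. Named genes were Tnpo3, the 9 members, up to 4 genes per pathway list with the lowest adjusted p, up to 2 per marker list with the highest mean CPM, and the 5 genes nearest to Slc4a1. A gene named by this rule is not reported here. The proliferation genes, Cd163, Jak2, Socs3, Bcam and Ypel4 were named after their values were seen, Cd24a, Spn and Ptprc as sort markers and Apex2 as a gene overlapping Alas2. The listed Ahsp was not analysed here. Coordinates are RefSeq GRCm38.p6, and exon lengths are from GENCODE. The alternatives were limma-voom (limma 3.58.1), limma on the deposited normalized signal (log2 after adding 1), DESeq2 1.42.0, edgeR scaled by DESeq2 size factors or by total counts, no expression filter, a filter requiring 1 CPM in 2 libraries with at least 50 counts on average, sex as a block, and each library left out, where a lone library is assumed to vary like the others.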

Additional observations from a re-analysis of the deposited data

How the results depend on the processing

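Slc4a1 and Car1 passed in all 12 alternatives and Klf1 in all 11 that gave it a value, and each of the 9 members kept the sign of its fold change in every alternative. With a library left out, that sign followed largely from the separation of the groups. Fold changes over libraries left out in turn ran from -6.60 to -4.38 for Slc4a1, -3.96 to -1.83 for Gata1 and 0.68 to 1.79 for Tfrc. Of the members, 3 were lower with the stricter filter, which tested 6 and dropped Klf1, Gata1 and Epor, and 8 were lower with sex as a block. Calls over all genes also rose with sex as a block, from 2992 to 4323. Tfrc, 1 member, was higher without a filter, by DESeq2 and with sex as a block, and 0 to 1 were higher with a library left out. Red cell programme genes called lower numbered 20 to 33 with a library left out. Those called higher were 12 without a filter, 12 by DESeq2, 2 with the authors' normalized values, 13 with sex as a block, and 1 to 9 with a library left out. Over all genes, the 2992 calls became 1698 with the authors' normalized values and 1123 to 3175 with a library left out. For the other 47 named genes, 519 of 559 values kept their direction and side of the threshold, 30 no longer passed, 8 newly passed and 2 reversed. Those were Spib, from -0.93 to 0.23, and Dntt, from -0.99 to 0.47, over the libraries left out, and the cause was not tested. The higher share of all calls was 50.9%, and 48.8% to 57.5% over alternatives.

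No pairing by mouse number was possible, since no number occurs in both genotypes, and libraries were matched by sex alone. Each knockout held 5 to 20 counts of Klf1 and Gata1, which limits the precision of their fold changes.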

Other observations

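The knockout libraries differed from each other in the members. Knockout 63 was above knockout 51 in 7 of 9 members and in 15 of 22 membrane and skeleton genes, against 51.0% of all genes tested, while 0 of 14 neutrophil markers were higher in knockout 63. The other red cell lists did not share this, and the share over the 120 programme genes was 45.8%. It was so in 7 of 20 transcription factors, 7 of 18 heme synthesis and 8 of 19 iron genes. The same held for 9 of 17 erythropoietin signalling genes, 10 of 19 late red cell genes and 1 of 7 carbonic anhydrases. The cause was not tested.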
